A study of Mus musculus with 11 samples.

Results

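The 9 genes described here are factors and markers of the pancreatic duct: the transcription factors Sox9, Onecut1 and Ehf, the ion and bicarbonate genes Cftr and Car2, and the secreted or surface proteins Spp1, Muc1, Epcam and Pigr. They were taken by symbol from a table of read counts for 54532 genes, each symbol matched 1 row, and all 9 were among the 14113 genes that passed the filter on low counts. Messenger RNA was measured by sequencing in whole pancreas of C57BL/6JRj mice, in 11 libraries numbered by mouse. The groups were 3 young untreated mice (7 weeks), 2 aged untreated mice (18 months), 3 young and 3 aged mice given caerulein, a cholecystokinin analogue that overstimulates acinar cells. Caerulein was injected into the peritoneum at 125 µg/kg, 4 times at hourly intervals. The treated libraries are labelled 5H, and since the labels leave the time from the first injection ambiguous, only that label is used. The aged untreated mice carry the numbers 2 and 3 in the labels. No allele or transgene is named, and the untreated mice are not described as given a sham injection.

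Pancreatic ducts carry the enzymes of the acinar cells to the gut and rinse them with a bicarbonate-rich fluid. Duct cells secrete chloride through CFTR, exchange it for bicarbonate made by carbonic anhydrases, and carry mucins and adhesion proteins on their surface. SOX9 keeps the duct and progenitor program active and is switched on in acinar cells that take on duct features after injury, a change called acinar-to-ductal metaplasia. In bulk tissue, fewer cells of a type and less RNA per cell cannot be told apart, and every level below is a level of the whole organ, not of duct cells.

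Total counts ranged from 14223190 to 26537091 per library. The library of young untreated mouse 2, called mouse 2 below where no group is named, stood apart: summed over 11 B cell and plasma cell markers it held 240 CPM of library totals (counts per 1e+06 counts of the library), against 0.0855 to 5.32 CPM in the other 10 libraries. Over 9 adipocyte markers it held 477 CPM against 24.1 to 54.8 CPM, over 12 macrophage markers 428 CPM against 35.4 to 136 CPM, and over 6 red blood cell markers 153 CPM against 11.8 to 31.6 CPM. The 12 acinar markers, which check the tissue label, summed to between 445100 and 485000 CPM in untreated and between 354100 and 374000 CPM in caerulein libraries, so acinar transcripts made up much of every library. Each comparison with the young untreated group is therefore given with and without mouse 2 where a call depends on it, and the part of its other cell types in any result was not tested.

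Caerulein raised Epcam and lowered Onecut1 and Muc1 at both ages. Spp1 was called higher in young mice and Sox9 in aged mice. For neither gene did the difference between the young and aged responses pass in the main edgeR fit (adjusted p = 0.698 for Spp1 and 0.211 for Sox9). Ehf, Cftr, Car2 and Pigr did not pass the test at either age. In young mice 2 of the 9 genes were higher, 2 lower and 5 did not pass, where 52.3% of all genes tested were called (27.5% higher and 24.7% lower). The aged mice also gave 2 higher, 2 lower and 5 not passed, where 48.2% of all genes were called (27.0% higher and 21.2% lower). Treated and untreated libraries did not overlap for 4 of the 9 genes in young mice (57.3% of all genes) and for 7 in aged mice (71.2%). At each age 4 of the 9 genes were called, a share not above that of all genes in this fit. Calls are adjusted p below 0.05 by the quasi-likelihood test of edgeR, Benjamini-Hochberg adjusted over all genes. The p-values weigh a difference of group means against the spread between mice, estimated over all 11 libraries. Levels are CPM scaled by TMM, a trimmed mean of log ratios between libraries, and they are given by library with log2 fold changes ± SE. Without young untreated mouse 2, 2 genes were higher and 3 lower at each age (57.6% of genes called in young mice, 30.8% higher and 26.8% lower, and 58.3% in aged mice, 30.7% higher and 27.6% lower), the addition being Ehf. With library totals in place of TMM the median log2 fold change of all genes moved from -0.06 to 0.43 in young and from 0.07 to 0.69 in aged mice, and the counts became 5 higher and 2 lower in young mice (46.6% of genes called, 37.7% higher and 8.99% lower) and 3 higher and 1 lower in aged mice (46.2% called, 38.6% higher and 7.61% lower). The young share called was then above that of all genes.

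**Figure D1:**
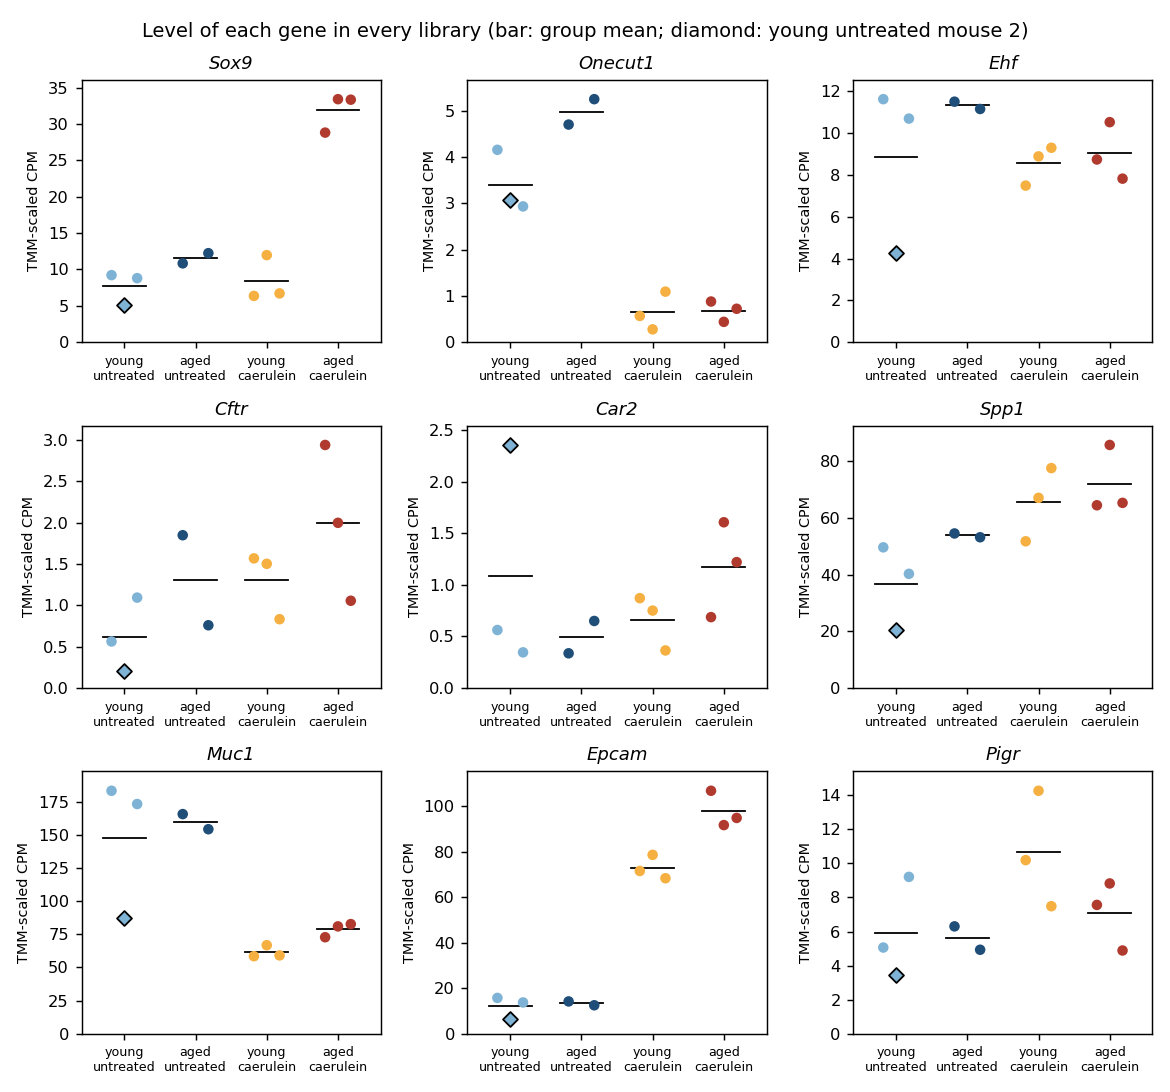
Level of each of the 9 genes in every library, in TMM-scaled CPM on linear axes that start at 0, with 1 point per mouse and a bar at the group mean. The 3 aged caerulein libraries lie at 28.8 to 33.4 CPM for Sox9, above the other 8 libraries, and the diamond of young untreated mouse 2 is the lowest untreated library for Sox9, Ehf, Cftr, Spp1, Muc1, Epcam and Pigr but the highest for Car2.

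**Figure D2:**
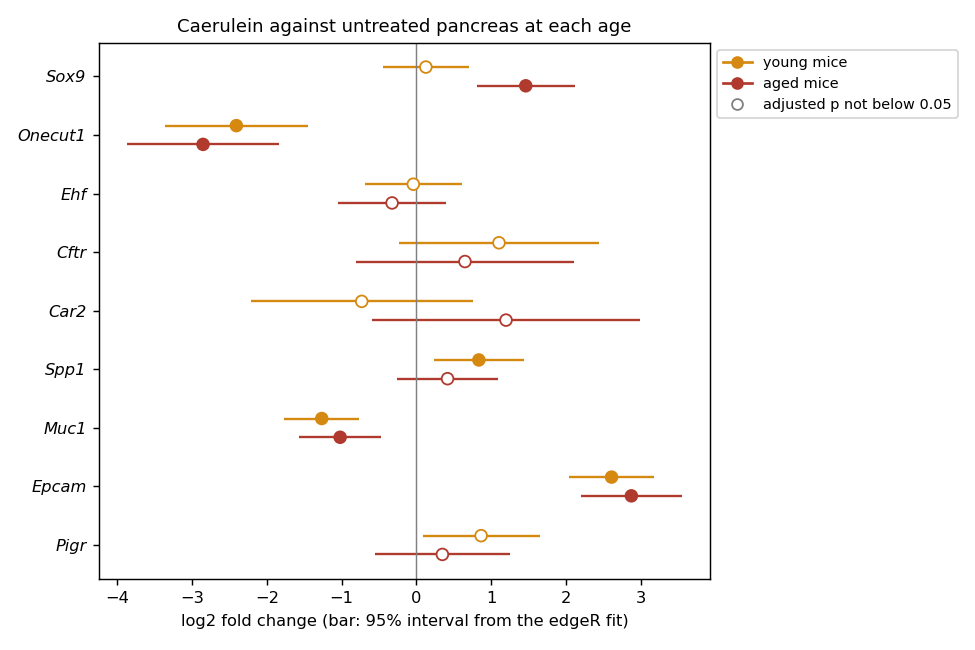
Log2 fold change of caerulein against untreated pancreas for each gene in young and aged mice, with 95% intervals from the edgeR fit and open points where the adjusted p was not below 0.05. Epcam lies at 2.61 and 2.87, Onecut1 at -2.41 and -2.85 and Muc1 at -1.27 and -1.02, while the points of Sox9 lie apart at 0.13 in young and 1.46 in aged mice.

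The sequences before the start sites of 3 genes that passed the test at both ages are shown, Epcam as the gene that rose most and Onecut1 and Muc1 as the genes that fell at both ages. Each is the 250 bases upstream of the RefSeq start on GRCm38.p6, plus strand, 5′ to 3′, and capitals mark matches to the motifs searched.
Epcam, chr17:87635729-87635978: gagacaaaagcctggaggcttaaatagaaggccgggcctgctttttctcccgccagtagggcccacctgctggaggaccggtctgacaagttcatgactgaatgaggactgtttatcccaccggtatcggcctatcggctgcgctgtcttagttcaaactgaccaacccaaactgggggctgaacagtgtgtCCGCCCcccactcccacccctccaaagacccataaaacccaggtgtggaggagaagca
Onecut1, chr9:74861671-74861920: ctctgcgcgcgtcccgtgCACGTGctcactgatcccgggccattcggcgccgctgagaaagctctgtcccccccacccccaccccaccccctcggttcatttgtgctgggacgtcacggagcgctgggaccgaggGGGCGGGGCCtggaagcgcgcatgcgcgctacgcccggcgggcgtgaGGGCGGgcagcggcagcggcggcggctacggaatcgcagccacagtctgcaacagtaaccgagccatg
Muc1, chr3:89228806-89229055: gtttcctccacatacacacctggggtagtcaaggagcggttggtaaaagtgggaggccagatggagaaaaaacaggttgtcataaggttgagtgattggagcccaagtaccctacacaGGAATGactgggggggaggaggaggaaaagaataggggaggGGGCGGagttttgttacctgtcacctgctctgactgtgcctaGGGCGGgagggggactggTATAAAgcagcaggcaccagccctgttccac
The Epcam window holds 1 match to the GC box GGGCGG, on the minus strand 58 bases before the start. In the Onecut1 window the E-box CACGTG lies 232 bases before the start, and GC boxes lie 115 and 68 bases before it, the first of them overlapping a match to the NF-kB motif. The Muc1 window holds TATAAA 31 bases before the start, GC boxes at 49 and 91 bases, and the Tead letters GGAATG at 132 bases.

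RefSeq windows were matched for 6 of the 9 genes (Onecut1, Cftr, Spp1, Muc1, Epcam and Pigr), with 2 windows for Spp1. Sox9, Ehf and Car2 had none. Over 32851 promoters of the same length, 32.7% held a GC box on either strand, 6.02% the E-box, 45.8% the NF-kB motif, 12.4% TATAAA and 12.6% the Tead letters. GC boxes were found in Onecut1, Cftr, Muc1 and Epcam, the E-box in Onecut1 and Pigr, and the NF-kB motif in Onecut1 and Pigr. The Sox letters ACAAT, in 27.7% of promoters, were found in Pigr alone of the 6 genes, and the Ets letters CCGGAAG, in 6.91%, in Spp1 alone. The remaining letters searched were AP-1 TGANTCA (6.75% of promoters), the cyclic AMP element TGACGTCA (1.55%), Onecut ATCGAT (0.728%) and ATCAAT (6.72%), the Hnf1 letters TTAATNATT (1.40%), the heat shock pair GAANNTTC (6.69%) and Stat TTCNNNGAA (7.02%), and 0 of the 7 windows held any of them. The windows of Cftr and Onecut1 had 76.4% and 71.6% G and C, against a median of 52.4% over all promoters, and those of Muc1, Epcam and Pigr had 54.8%, 56.4% and 50.4%. A match is a run of letters and says nothing of binding.

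Sox9 (ENSMUSG00000000567, mm10 chromosome 11, 112782224 to 112787760, plus strand) encodes the HMG-box factor of duct and progenitor cells. Untreated young libraries held 9.22, 5.16 and 8.80 CPM, and untreated aged libraries 10.8 and 12.2 CPM. The lowest value, 5.16 CPM, was that of mouse 2, and both aged libraries lay above all 3 young ones. After caerulein the young libraries held 6.36, 12.0 and 6.71 CPM and the aged ones 28.8, 33.4 and 33.4 CPM. The ranges of the young treated and untreated libraries overlapped, while every aged treated library was more than 2-fold above every other library. The raw counts behind these values were 129 to 303 reads in the 3 groups other than aged caerulein and 601 to 755 reads in that group.

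In aged mice the log2 fold change of Sox9 with caerulein was 1.46 ± 0.30 (2.75-fold, adjusted p = 0.00186), and it was called higher under all 23 alternatives run, at 1.24 to 2.09. In young mice it was 0.13 ± 0.26 (95% interval -0.45 to 0.71, adjusted p = 0.709), and it was -0.15 ± 0.22 without mouse 2. Library totals gave 0.68 in young mice with an adjusted p of 0.0357, and 0.63 (adjusted p = 0.0332) with mouse 2 left out as well. Mouse 2 of the young caerulein group, at 12.0 CPM, was the high library of its group, and without it the young value was -0.24 (adjusted p = 0.419). The authors' deposited table gives Sox9 a log2 fold change of 1.43 in aged mice (adjusted p = 1.9e-14) and 0.09 in young mice (adjusted p = 0.88).

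Onecut1 (ENSMUSG00000043013, chromosome 9, 74861921 to 74891781, plus strand) encodes HNF6, a factor of duct development and of the primary cilium of duct cells. Young untreated libraries held 4.16, 3.08 and 2.94 CPM and aged untreated libraries 4.71 and 5.25 CPM, from 51 to 97 reads. After caerulein the values were 0.566, 0.277 and 1.09 CPM in young and 0.878, 0.439 and 0.722 CPM in aged mice, from 7 to 23 reads. Every treated library lay below every untreated one at both ages. Onecut1 fell by 2.41 ± 0.43 on the log2 scale in young mice (5.31-fold lower, adjusted p = 0.000817) and by 2.85 ± 0.46 in aged mice (7.23-fold lower, adjusted p = 0.000407). It was called lower at each age under all alternatives that kept it, 20 in young and 19 in aged mice, the stricter filter having removed it.

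Ehf (ENSMUSG00000012350, chromosome 2, 103263433 to 103303278, minus strand) encodes an ETS factor of simple epithelia. Its levels were 11.6, 4.28 and 10.7 CPM in young untreated, 11.5 and 11.2 CPM in aged untreated, 7.49, 8.89 and 9.30 CPM in young caerulein and 8.74, 10.5 and 7.83 CPM in aged caerulein libraries. Apart from mouse 2 at 4.28 CPM, the untreated libraries lay above the treated ones. The log2 fold change was -0.04 ± 0.30 in young (95% interval -0.69 to 0.61, adjusted p = 0.919) and -0.33 ± 0.33 in aged mice (-1.05 to 0.40, adjusted p = 0.447). Without mouse 2 Ehf was called lower at both ages (-0.44 ± 0.15 with adjusted p = 0.0213 in young, -0.39 ± 0.15 with adjusted p = 0.0384 in aged mice), and with library totals it was at 0.56 and 0.28 and was not called.

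Cftr (ENSMUSG00000041301, chromosome 6, 18170687 to 18322768, plus strand), the cyclic AMP-gated chloride and bicarbonate channel of the duct surface, was read 5 to 77 times per library. Its levels were 0.562, 0.200 and 1.09 CPM in young untreated, 1.85 and 0.758 CPM in aged untreated, 1.57, 1.50 and 0.832 CPM in young caerulein and 2.94, 2.00 and 1.05 CPM in aged caerulein libraries. The groups overlapped in each comparison. Log2 fold changes with caerulein were 1.10 ± 0.61 in young (95% interval -0.24 to 2.44, adjusted p = 0.148) and 0.65 ± 0.67 in aged mice (-0.81 to 2.11, adjusted p = 0.455), so changes of more than 2-fold were not excluded at this depth. The young value was called with library totals (1.72, adjusted p = 0.0299) and without young untreated mouse 3 (1.80, adjusted p = 0.0412).

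Car2 (ENSMUSG00000027562, chromosome 3, 14886273 to 14900770, plus strand) encodes cytosolic carbonic anhydrase, which makes bicarbonate in duct cells and is also abundant in red blood cells. Young untreated libraries held 10, 59 and 6 reads (0.562, 2.36 and 0.345 CPM), and aged untreated libraries 4 and 12 reads (0.336 and 0.650 CPM). Mouse 2, which also had the most red blood cell marker counts, was the highest of all 11 libraries, and the part of those cells in its Car2 level was not tested. Caerulein libraries held 0.871, 0.751 and 0.364 CPM in young and 0.687, 1.61 and 1.22 CPM in aged mice. The 2 aged groups did not overlap, but the log2 fold change of 1.20 ± 0.81 did not pass (95% interval -0.59 to 2.99, adjusted p = 0.252). In young mice it was -0.73 ± 0.68 (-2.22 to 0.75, adjusted p = 0.382), and without mouse 2 it was 0.50 ± 0.59.

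Spp1 (ENSMUSG00000029304, chromosome 5, 104435118 to 104441050, plus strand) encodes osteopontin, a secreted phosphoprotein of duct cells that macrophages make as well. Untreated libraries held 49.6, 20.4 and 40.3 CPM in young and 54.5 and 53.2 CPM in aged mice. Caerulein libraries held 51.8, 67.1 and 77.6 CPM in young and 64.5, 85.8 and 65.3 CPM in aged mice. All treated libraries lay above the untreated ones of their age, by little in the case of the lowest young treated library. Spp1 rose by 0.84 ± 0.27 on the log2 scale in young mice (1.78-fold, adjusted p = 0.0249), and by 0.49 ± 0.17 without mouse 2 (adjusted p = 0.0233). The call was lost when mouse 2 or 3 of the young caerulein group was left out (adjusted p = 0.0611 and 0.091), with the stricter filter (adjusted p = 0.0511) and with only the 2 groups in the fit (adjusted p = 0.0684). Taking mouse numbers as pairs left the call in the fit of all groups (0.85, adjusted p = 0.041) and not in a fit of the young groups alone (0.89, adjusted p = 0.0632). The aged value was 0.42 ± 0.31 (95% interval -0.26 to 1.09, adjusted p = 0.293), and it was called with library totals (1.03, adjusted p = 0.00379), with summed B and T cell markers as a covariate (0.49, adjusted p = 0.0205) and in the authors' deposited table (0.38, adjusted p = 0.0348). Macrophage markers, 12 of 12 found, summed to 35.4 to 57.0 CPM of library totals in the untreated libraries other than mouse 2, to 63.7 to 126 CPM in young caerulein and to 93.1 to 136 CPM in aged caerulein libraries. Mouse 2 had the most macrophage marker counts and the least Spp1 of the 11 libraries, and the part of macrophages in the Spp1 level was not tested.

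Muc1 (ENSMUSG00000042784, chromosome 3, 89229057 to 89233381, plus strand) encodes the membrane mucin of the apical surface of ducts and acini. Its untreated levels were 183, 87.4 and 173 CPM in young and 166 and 154 CPM in aged mice. After caerulein they were 58.5, 66.8 and 59.1 CPM in young and 72.8, 81.0 and 82.7 CPM in aged mice. Every treated library was below every untreated one, mouse 2 included. Muc1 fell by 1.27 ± 0.23 on the log2 scale in young (2.41-fold lower, adjusted p = 0.000804) and by 1.02 ± 0.25 in aged mice (2.03-fold lower, adjusted p = 0.00543). In aged mice the call was lost with library totals (-0.40, adjusted p = 0.0977) and without aged untreated mouse 2 (-0.95, adjusted p = 0.0518). In young mice library totals gave -0.68, and the call held in all 21 alternatives.

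Epcam (ENSMUSG00000045394, chromosome 17, 87635979 to 87651106, plus strand) encodes the epithelial cell adhesion molecule, a homophilic surface protein that is strong on ducts and weak on resting acini. Untreated libraries held 15.7, 6.51 and 13.7 CPM in young and 14.2 and 12.5 CPM in aged mice. After caerulein they held 71.5, 78.6 and 68.4 CPM in young and 107, 91.7 and 94.9 CPM in aged mice. The lowest treated library had more than 4 times the level of the highest untreated one. Epcam rose by 2.61 ± 0.26 on the log2 scale in young mice (6.11-fold, adjusted p = 9.96e-06) and by 2.87 ± 0.31 in aged mice (7.33-fold, adjusted p = 2.1e-05), and it was called higher in all 21 alternatives in young and all 20 in aged mice. Without mouse 2 the young value was 2.25 ± 0.12.

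Pigr (ENSMUSG00000026417, chromosome 1, 130826684 to 130852249, plus strand) encodes the polymeric immunoglobulin receptor, which carries IgA across duct and gut epithelium. Levels were 5.06, 3.44 and 9.21 CPM in young untreated, 6.30 and 4.93 CPM in aged untreated, 10.2, 14.3 and 7.49 CPM in young caerulein and 7.56, 8.82 and 4.89 CPM in aged caerulein libraries. Treated and untreated libraries overlapped at both ages. The log2 fold change of 0.87 ± 0.36 in young mice (95% interval 0.08 to 1.65) missed the threshold (adjusted p = 0.061), and the aged value was 0.35 ± 0.41 (-0.56 to 1.25, adjusted p = 0.522). In young mice the gene was called in 5 of 21 alternatives, among them library totals (1.45, adjusted p = 0.00334), no filter (0.88, adjusted p = 0.00313) and without young untreated mouse 3 (1.33, adjusted p = 0.00719), and it was at 0.53 (adjusted p = 0.148) without mouse 2.

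Age was compared within each treatment. Between untreated mice 0 of the 9 genes passed edgeR's test, and 0 had an unadjusted p below 0.05 or were called by DESeq2. Of all genes tested, 0.0921% were called (0.0567% higher and 0.0354% lower). Untreated Sox9, Onecut1 and Spp1 were higher in both aged libraries than in the 3 young ones, a separation that 23.2% of all genes showed, at log2 fold changes of 0.59 ± 0.29, 0.56 ± 0.44 and 0.55 ± 0.30 (adjusted p = 0.545, 0.678 and 0.569). Those of Muc1, Epcam and Pigr were 0.11 ± 0.25, 0.16 ± 0.28 and -0.07 ± 0.41.

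Between caerulein mice 1 of the 9 genes was called higher in aged animals and 0 lower, where 3.73% of all genes were called (2.46% higher and 1.27% lower). That gene was Sox9, at 31.9 ± 2.64 CPM (SD, n = 3) in aged against 8.35 ± 3.15 CPM (n = 3) in young mice, a log2 fold change of 1.93 ± 0.26 (3.80-fold, adjusted p = 0.00308). It was called under all 23 alternatives, at 1.77 to 2.28. Epcam and Muc1 libraries did not overlap either, as was the case for 30.9% of all genes. Epcam was at 97.8 ± 7.93 CPM in aged and 72.8 ± 5.26 CPM in young mice (log2 fold change 0.43 ± 0.24, adjusted p = 0.388), and Muc1 at 78.8 ± 5.29 and 61.5 ± 4.63 CPM (0.36 ± 0.23, adjusted p = 0.445). Both were called without young untreated mouse 2, whose spread enters the fit (adjusted p = 0.0123 for Epcam and 0.0275 for Muc1, with 14.2% of genes called, 7.85% higher), and with only the 2 groups in the fit (0.0199 and 0.0416). In the authors' deposited table the adjusted p is 0.00183 for Epcam and 0.019 for Muc1. For the others the 95% intervals of aged against young were -0.88 to 1.10 for Onecut1, -0.57 to 0.73 for Ehf, -0.64 to 1.88 for Cftr, -0.68 to 2.29 for Car2, -0.46 to 0.73 for Spp1 and -1.36 to 0.19 for Pigr.

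**Figure D3:**
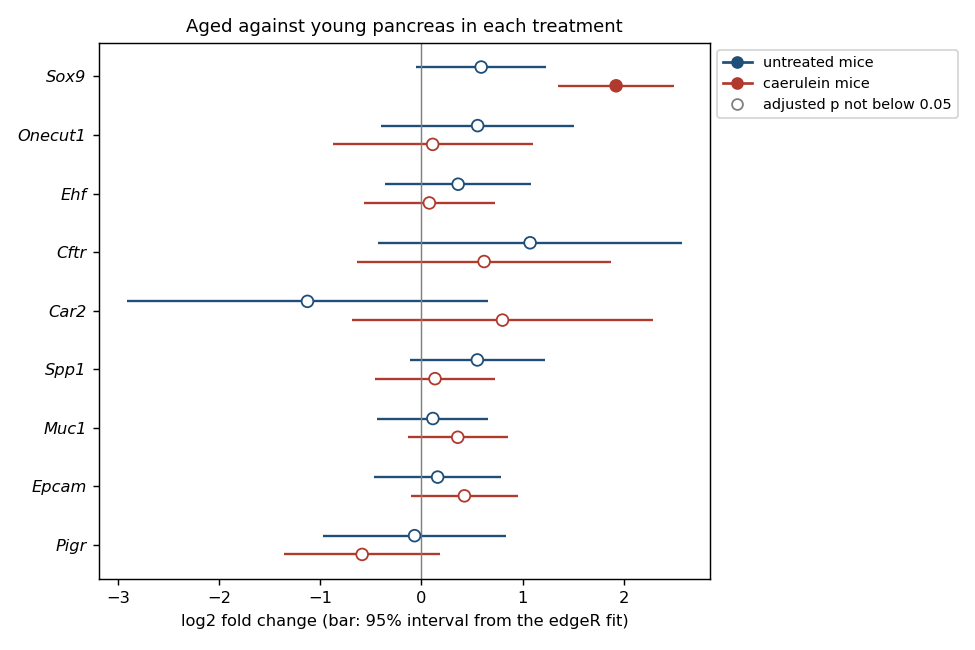
Log2 fold change of aged against young pancreas for each gene in untreated and in caerulein mice, with 95% intervals from the edgeR fit and open points where the adjusted p was not below 0.05. Sox9 in caerulein mice, at 1.93, is the filled point, and the intervals of all 9 genes in untreated mice include 0.

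Whether caerulein acted differently by age was tested as the difference between the 2 responses. In this test 0 of the 9 genes passed by edgeR, 0 by DESeq2, and 1, Sox9, had an unadjusted p below 0.05, where 0.0142% of all genes were called (0.00709% in each direction). The estimated Sox9 response was larger in aged than in young mice by 1.34 ± 0.39 on the log2 scale, a difference that did not pass (95% interval 0.47 to 2.20, unadjusted p = 0.00589, adjusted p = 0.211). Without young untreated mouse 2 the difference was 1.55 ± 0.30 and passed (adjusted p = 0.0207, with 2.29% of genes called, 1.48% higher), as it did with no filter (1.34, adjusted p = 0.00251) and with summed B and T cell markers as a covariate (1.52, adjusted p = 0.0292). It did not pass with library totals (1.41, adjusted p = 0.261), by DESeq2 (1.34, adjusted p = 0.0522) or with library totals and mouse 2 left out together (1.47, adjusted p = 0.0507), while DESeq2 without mouse 2 gave 1.56 (adjusted p = 7.49e-05). Further settings in which the difference did not pass were the stricter filter (adjusted p = 0.126) and DESeq2 size factors (0.219). The same held without the 50 most abundant genes (0.239) and with the mouse number as a block (0.301). Nor did it pass when any library other than that of young untreated mouse 2 was left out. In all, 5 of the 22 alternatives passed and 17 did not, and across the 22 the size lay between 1.18 and 1.69. Differences for Epcam and Muc1 were 0.26 ± 0.37 and 0.25 ± 0.34, and that for Car2 was 1.93 ± 1.06 (95% interval -0.39 to 4.25), 0.61 without mouse 2. For Spp1 the difference was -0.42 ± 0.41 (95% interval -1.315 to 0.478, adjusted p = 0.698).

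**Figure D4:**
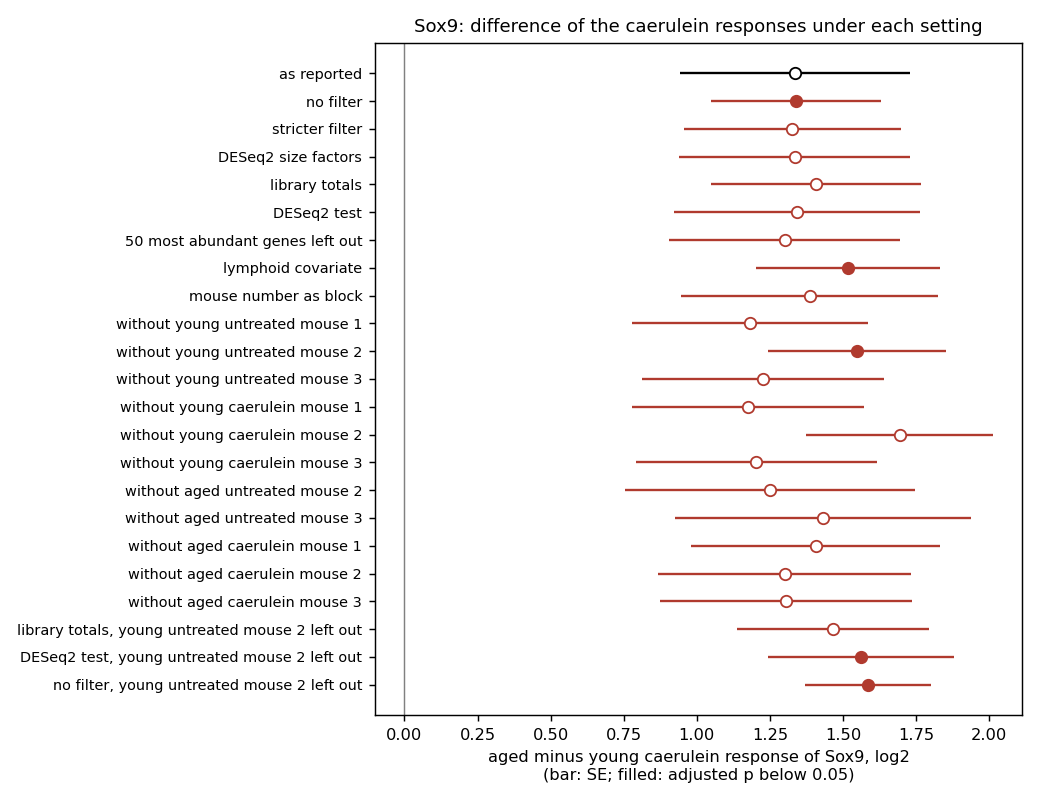
Difference between the aged and the young caerulein response of Sox9, in log2 units with SE bars, as reported and under each of 22 alternative settings, filled where the adjusted p was below 0.05. The estimates lie between 1.18 and 1.69, and the filled points are those with no filter, with the lymphoid covariate, and with young untreated mouse 2 left out, except where library totals replaced TMM as well.

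A ratio of 2 genes within a library does not depend on how libraries are scaled, so Sox9 was set against each of the other 8 genes, both per kb of gene length. In caerulein mice the ratio was higher in all 3 aged than in all 3 young libraries for Ehf, Cftr, Car2, Spp1, Muc1, Epcam and Pigr, by 1.16 to 2.57 on the log2 scale. Against Onecut1 the groups overlapped (2.61 to 5.43 in young and 5.03 to 6.24 in aged caerulein libraries). To Pigr the mean log2 ratio of Sox9 was 0.42 in young untreated and 1.01 in aged untreated libraries, and it was -0.40 in young caerulein and 2.17 in aged caerulein libraries. Against Spp1 it was -3.53, -3.55, -4.34 and -2.49 in the same order. For both genes the ratio was thus below the untreated range in young and above it in aged mice after caerulein. Relative to Epcam, the ratio was lower after caerulein at both ages, from -1.60 to -4.21 in young and from -1.23 to -2.64 in aged mice. All 8 ratios share the Sox9 counts, so they are not 8 separate results, and no test was made. Sox9 itself was higher in all 3 aged than in all 3 young caerulein libraries. The share of all genes with such a separated ratio was not counted, so these genes are not thereby particular.

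**Figure D5:**
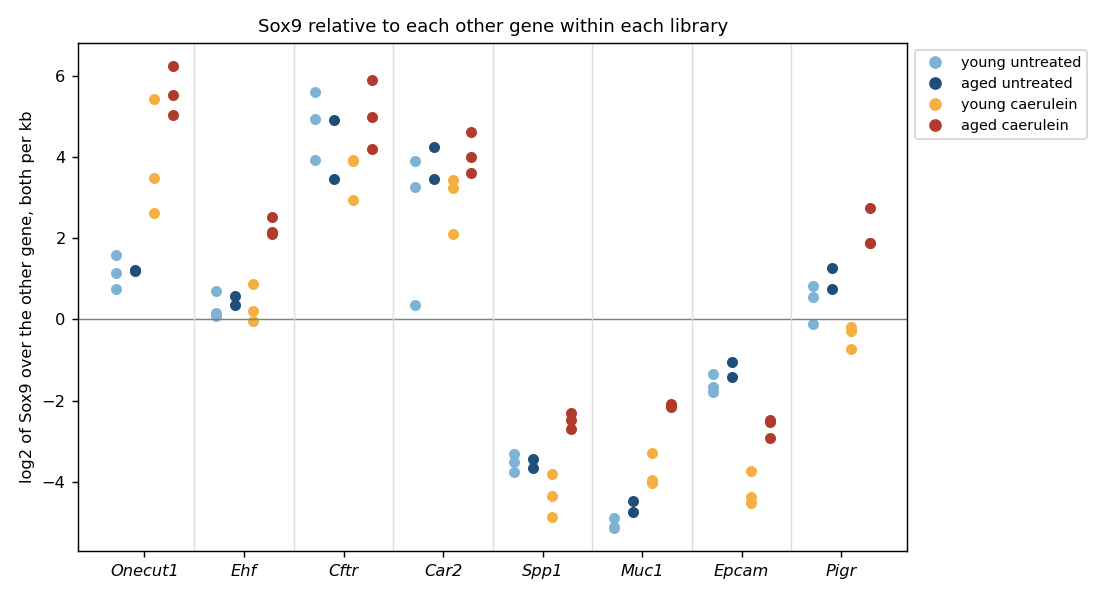
Log2 ratio of Sox9 to each of the other 8 genes in every library, both per kb of gene length, with 1 point per library in each of the 4 groups. For 7 genes the 3 aged caerulein points lie above the 3 young caerulein points, and for Pigr and Spp1 the young caerulein points lie below the untreated ones.

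Levels can be compared between genes only per length, here as TMM-scaled RPKM (CPM per kb of gene). In both untreated groups the order began with Muc1 (63.1 in young and 68.2 in aged mice), Spp1 (22.3 and 32.7), Epcam (5.88 and 6.55) and Sox9 (1.87 and 2.79), and the first 3 were each separated from the next by non-overlapping libraries. In young untreated mice Sox9, Ehf, Pigr, Onecut1 and Car2 (0.449) followed without a gap between neighbours, and Cftr was last at 0.0796. Caerulein brought Epcam to the level of Spp1 and above Muc1. In young treated mice Spp1 (39.7) and Epcam (35.7) overlapped, followed by Muc1 (26.2) and then, far below, Pigr (2.65), Sox9 (2.02) and Ehf (1.54). In aged treated mice Epcam (47.9) and Spp1 (43.6) overlapped, and Sox9 (7.71) stood between Muc1 (33.6) and Pigr (1.76), separated from both. Onecut1 was last in both treated groups, at 0.157 and 0.165, and its libraries overlapped those of Cftr. The order was the same in all 4 groups by the deposited FPKM. The FPKM rest on the same counts and gene lengths, and on library sizes close to the TMM-scaled ones, and are no separate check.

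The genes whose pattern over the 11 libraries was most like that of Sox9 were sought among 7096 genes with a mean of at least 5 CPM, by the root mean square difference of centred log2 CPM. They were Entpd7 (0.34), the fibrinogen-like protein Fgl2 (0.37), the glyoxalase Hagh (0.37), the serpin Serpinb1a (0.37) and the muscarinic receptor Chrm3 (0.41). The spread of Sox9 itself on that scale was 0.96 (SD). Mean levels of Fgl2 were 35.8 CPM in young untreated, 61.1 in aged untreated, 27.4 in young caerulein and 144 in aged caerulein mice, and those of Serpinb1a were 73.7, 90.8, 76.6 and 206 CPM. For Muc1 the nearest were Fundc1 (0.08) and Nucb2 (0.10), with Nucb2 at 183, 211, 77.9 and 97.9 CPM in the same order of groups. For Epcam they were Hspb8 (0.15), at 9.92, 11.7, 63.5 and 81.2 CPM, and Pkp2 (0.17), a desmosome plakophilin. The closest for Onecut1 were Rab27a (0.41) and Tia1 (0.43), for Spp1 Gpt (0.16) and Asns (0.19), and for Ehf Pnliprp2 (0.13) and Fdft1 (0.14). The nearest was Plxna3 (0.47) for Cftr, Tubb5 (0.32) for Car2 and Csrp2 (0.30) for Pigr. Since the libraries are the same as those of the comparisons above, the likeness is a description.

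Other genes of the duct were counted from lists. The counts of every list below stand beside the share of all genes called with caerulein. It was 52.3% in young mice (27.5% higher, 24.7% lower) and 48.2% in aged mice (27.0% higher, 21.2% lower). With library totals it was 46.6% and 46.2%, and without mouse 2 it was 57.6% and 58.3%. Of 21 other ductal markers tested, 9 rose and 4 fell in young mice (12 and 2 with library totals, 10 and 6 without mouse 2), and 7 rose and 5 fell in aged mice (8 and 2 with library totals, 7 and 6 without mouse 2). Their median log2 fold change was 0.70 in young and 0.17 in aged mice, against -0.06 and 0.07 over all genes, and without mouse 2 it was 0.39 and 0.11, against 0.01 and 0.02. The simple-epithelium keratin Krt18 rose from 98.8 ± 35.2 to 1933 ± 227 CPM in young and from 85.3 ± 6.04 to 2725 ± 77.9 CPM in aged mice. Krt7, a keratin of ducts, rose by 2.54 ± 0.34 in young and 1.57 ± 0.40 in aged mice on the log2 scale, the aged call being lost without aged untreated mouse 2 (adjusted p = 0.0718). Cldn10, a tight junction protein, fell by 1.62 ± 0.23 and 2.28 ± 0.25. Thus keratins and claudin 10 of 1 list moved in opposite directions, as Epcam and Muc1 did. Between aged and young caerulein mice 0 of the 21 passed by edgeR, 3 had an unadjusted p below 0.05 and DESeq2 called 2. Without young untreated mouse 2, 1 was higher and 4 were lower by edgeR, where 14.2% of all genes were called. Krt18 was then higher in aged mice (0.47, adjusted p = 0.00882). Krt7 (-1.085, adjusted p = 0.000645) and Krt19 (-0.43, adjusted p = 0.047) were among the lower ones.

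Among 19 other transcription factors of duct and progenitor epithelium, 6 rose and 6 fell in young mice (9 and 3 with library totals) and 6 rose and 4 fell in aged mice (8 and 2 with library totals), with medians of -0.05 and 0.15. The Hippo effector Yap1 rose by 2.11 ± 0.15 and 1.68 ± 0.17, and its DNA-binding partner Tead1 by 2.14 ± 0.21 and 1.96 ± 0.24. Hnf4a, a nuclear receptor of endoderm, fell by 1.43 ± 0.17 in young mice and was at -0.25 ± 0.19 in aged mice (adjusted p = 0.302). The difference between these 2 responses, 1.18 ± 0.26, did not pass in the main fit (adjusted p = 0.11). Like Sox9, Hnf4a was higher in aged than in young caerulein mice (1.28 ± 0.17, adjusted p = 0.00308), as was Gata6 (0.81 ± 0.19, adjusted p = 0.0429). The Yap1 relative Wwtr1 was lower (-0.97 ± 0.20, adjusted p = 0.0251). The calls of Gata6 and Wwtr1 were lost with library totals (adjusted p = 0.148 and 0.141), that of Wwtr1 without any 1 of the 6 caerulein libraries (adjusted p = 0.0528 to 0.1), and that of Gata6 without any young caerulein, any aged untreated or 2 of the 3 aged caerulein libraries, mice 2 and 3 (0.0826 to 0.149). Of 9 other ETS factors, the family of Ehf, 4 rose and 1 fell in young and 5 rose and 1 fell in aged mice (4 and 0, and 5 and 0, with library totals), with medians of 0.70 and 1.55. Without mouse 2 the young count was 6 higher and 1 lower, and the medians were 1.56 and 1.45. Elf3, the epithelial ETS factor, rose by 2.78 ± 0.23 and 3.37 ± 0.28, and Ets2 by 2.22 ± 0.14 and 2.51 ± 0.16. Elf1 and Gabpa also rose at both ages. Spdef was lower at both ages (-0.88 ± 0.27 and -0.89 ± 0.29, adjusted p = 0.0172 and 0.0265). Etv4, Etv5 and Ets1 did not pass at either age. The family thus went both ways, and Ehf was not the only ETS factor that did not rise.

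Of 10 genes that YAP and TEAD factors activate, 5 rose and 0 fell in young mice (unadjusted p below 0.05 in 6, called by DESeq2 in 5), and 4 rose and 1 fell in aged mice. Library totals gave 6 and 0 in young and 5 and 0 in aged mice. The muscle ankyrin repeat protein gene Ankrd1 rose by 3.90 ± 0.41 and 4.82 ± 0.53, and tissue factor (F3) by 1.97 ± 0.27 and 2.93 ± 0.35. Amotl2, an inhibitor of YAP, was at 0.40 ± 0.16 in young mice (adjusted p = 0.0546), fell by 0.70 ± 0.18 in aged mice, and was lower in aged than in young caerulein mice (-0.81 ± 0.16, adjusted p = 0.0189). With library totals Amotl2 was called higher in young mice (0.90, adjusted p = 0.00212) and not called in aged mice (-0.085, adjusted p = 0.769). Its aged call was also lost without aged untreated mouse 3 (adjusted p = 0.104), and its call between the ages without mouse 2 or 3 of either caerulein group (adjusted p = 0.0705 to 0.084). Of 15 genes of the primary cilium and of polycystic disease, some of which HNF6 is known to control, 6 rose and 4 fell in young and 4 rose and 5 fell in aged mice (6 and 2, and 7 and 2, with library totals). Cys1, cystin of the cilium, fell by 1.88 ± 0.34 and 1.94 ± 0.38 and the transport protein gene Ift20 by 1.21 ± 0.21 and 1.46 ± 0.23, while the kinesin gene Kif3a rose by 1.10 ± 0.20 and 0.91 ± 0.23, the aged call being lost without aged untreated mouse 2 (adjusted p = 0.0776).

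Fluid and bicarbonate secretion, the work of Cftr and Car2, was covered by 21 further genes. Of these 5 rose and 2 fell in young (8 and 0 with library totals, 7 and 5 without mouse 2) and 5 rose and 5 fell in aged mice (7 and 1 with library totals). Over all genes 52.3% were called in young and 48.2% in aged mice. The list medians were -0.025 and -0.067, against -0.061 and 0.07 over all genes. The calcium-gated chloride channel Ano1 rose from 22.9 ± 6.09 to 72.4 ± 6.29 CPM in young and from 25.8 ± 1.02 to 138 ± 6.42 CPM in aged mice, and was higher in aged than in young caerulein mice (0.93 ± 0.17, adjusted p = 0.0151), a call lost without young caerulein mouse 1 or 3 or aged caerulein mouse 2 or 3 (adjusted p = 0.0542 to 0.0747). The chloride and bicarbonate exchanger Slc4a2 rose by 1.15 ± 0.12 and 1.04 ± 0.14. Car9, a carbonic anhydrase of the cell surface, rose from 0.725 ± 0.0832 to 4.06 ± 0.712 CPM in young mice and was at 0.583 ± 0.364 and 0.871 ± 0.202 CPM in aged mice (adjusted p = 0.25), and it was lower in aged than in young caerulein mice (-2.21 ± 0.35, adjusted p = 0.00644). Ano1 and Car9 thus passed in opposite directions between the ages after caerulein, whereas Cftr and Car2 did not pass.

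Partners of the surface proteins were listed by the member they act with. Of 12 adhesion partners of Epcam, 9 rose and 1 fell in young (9 and 0 with library totals, 8 and 2 without mouse 2) and 8 rose and 0 fell in aged mice (8 and 2 without mouse 2), with medians of 1.69 and 1.20. In aged mice 9 of the 12 had an unadjusted p below 0.05 and DESeq2 called 8. E-cadherin (Cdh1) rose from 51.8 ± 17.4 to 999 ± 48.5 CPM in young and from 57.4 ± 7.24 to 1160 ± 82.7 CPM in aged mice. Claudin 7 (Cldn7), which binds EPCAM, rose by 3.46 ± 0.18 and 2.53 ± 0.20 and was lower in aged than in young caerulein mice (-0.71 ± 0.16, adjusted p = 0.0327), a call lost without any 1 of the 6 caerulein or 2 aged untreated libraries (0.0652 to 0.119). The tetraspanin Cd9 rose by 2.92 ± 0.12 and 2.91 ± 0.14. Epcam thus rose at both ages, as did most but not all of the adhesion genes of its list. Of 10 receptors of osteopontin, 5 rose and 2 fell in young (5 and 0 with library totals or without mouse 2) and 5 rose and 0 fell in aged mice (unadjusted p below 0.05 in 5, called by DESeq2 in 4). The integrin chains Itgb1 (1.79 ± 0.14 and 2.04 ± 0.16) and Itga5 (1.97 ± 0.20 and 2.14 ± 0.24) were among them.

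Of 6 mucins and partners of Muc1 tested, 2 rose and 1 fell in young and 3 rose and 1 fell in aged mice (3 and 1 at both ages with library totals). The enzymes that start mucin O-glycans went both ways, Galnt3 rising by 2.71 ± 0.18 and 2.90 ± 0.22 and Galnt1 falling from 47.2 ± 4.24 to 20.0 ± 2.63 CPM in young and from 46.8 ± 0.801 to 20.5 ± 0.316 CPM in aged mice. The galectin Lgals3, which binds MUC1 and is abundant in macrophages, rose by 2.31 ± 0.67 and 4.56 ± 0.93, and the part of macrophages in it was not tested. Without young untreated mouse 2, the library with the most macrophage marker counts, the values of Lgals3 were 4.04 and 4.49, and without young caerulein mouse 2 the young call was lost (1.88, adjusted p = 0.0581). Of 15 genes of IgA transcytosis and of Pigr induction, 6 rose and 2 fell in young (7 and 1 with library totals, 10 and 0 without mouse 2) and 6 rose and 0 fell in aged mice (9 with an unadjusted p below 0.05, 8 called by DESeq2; 8 rose and 1 fell without mouse 2). The recycling endosome genes Rab11a (1.34 ± 0.12 and 1.12 ± 0.14) and Rab11fip5 (2.58 ± 0.12 and 2.43 ± 0.15) rose, as did the TNF receptor Tnfrsf1a (1.80 ± 0.13 and 2.13 ± 0.15) and the IL-17 receptor Il17ra (1.40 ± 0.33 and 2.24 ± 0.41). Pigr itself did not pass at either age.

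Each of the 2 age comparisons shares libraries with both caerulein comparisons. No gene on the other strand of a member had reads: the only overlapping gene with any was Gm42793, on the strand of Spp1, with 0 to 3 reads per library. The strand setting of the counting is not given in the sources used here.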

How the data were processed

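Per the submitters' processing notes, reads were handled with HISAT2 2.0.5 and featureCounts 1.5.0-p3 on the mm10 build. The strand setting was not given in the sources used here, nor was the annotation release. The authors deposited whole-number read counts per gene (no normalization) and FPKM values (fragments scaled by gene length and a library size). In every library the size implied by the FPKM lay closer to the TMM-scaled size than to the total count. In units of 1e+06 counts, young untreated mouse 1 had 17.76 implied, 17.79 TMM-scaled and 23.63 in total. For young untreated mouse 2 these were 25.32, 25.02 and 22.13. The authors also deposited tables of their own log2 fold changes with p-values and adjusted p-values, which are named wherever used.

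From the counts, genes were filtered with filterByExpr over the 4 groups (14113 of 54532 kept), scaled by TMM and fitted in edgeR 4.0.16 (R 4.3.3, limma 3.58.1) with 1 mean per group over all 11 libraries. The 5 comparisons were tested by quasi-likelihood F, with Benjamini-Hochberg adjustment across the 14113 genes and calls at an adjusted p below 0.05. Intervals at 95% come from that fit. Marker sums are CPM of library totals. RPKM here divides by the deposited gene length. Like patterns used log2 CPM with a prior count of 2. The fit was checked on simulated counts.

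Named genes are the 9 members, up to 4 called genes with the smallest p in each list, and the nearest patterns (5 for Sox9, up to 2 for each other member). Some list genes called between aged and young caerulein mice are named as well, chosen after their values were seen. Others called there, such as Slc12a2 (higher in aged mice) and Spint1 (lower), are not described. The members and lists were chosen with earlier results of these data known. The list symbols Ccn1 and Ccn2 were matched as Cyr61 and Ctgf through RefSeq synonyms. The alternatives were no filter, a stricter filter (5 CPM in 2 libraries), DESeq2 size factors, library totals and DESeq2 1.42.0. Further ones were a fit with the 50 most abundant genes removed, a fit of only the groups compared and a B and T cell marker covariate. The mouse number as a block and each library left out completed them. For Sox9, 3 settings that also leave out young untreated mouse 2 were chosen after the data were seen, as was a fit of the young groups alone with the mouse number as a block. The labels do not say that a mouse number marks a shared litter or batch, and the main fit did not take the numbers as pairs. Same-numbered young untreated and caerulein libraries deviated together in 3 of 3 pairs (r = 0.106 to 0.149). Young untreated mouse 1 and young caerulein mouse 3, with unlike numbers, also had r = 0.149. The numbers were therefore taken as pairs only in the alternatives with the mouse number as a block. In the other comparisons of 2 groups 0 or 1 pair was above 0.1. Per library, 14223190 to 26537091 reads were counted.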

Additional observations from a re-analysis of the deposited data

How the results depend on the processing

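Over 898 recomputed values of single members, 828 kept their direction and their side of the threshold, 7 lost and 28 gained a call, and 35 changed sign, 0 of these being values called in the report. The calls of Epcam and Onecut1 with caerulein at both ages, of Muc1 in young mice, and of Sox9 in aged mice and between the ages after caerulein held under every alternative in which they were tested. The number of members called higher in young mice, 2, was 1 with the stricter filter and with only the groups compared, 5 with library totals, and 1 to 4 with each library left out in turn. The stricter filter left 1 member lower in each caerulein comparison, having removed Onecut1, and library totals left 1 lower in aged mice. With each library left out, 2 to 3 members were lower in young and 1 to 3 in aged mice. Between aged and young caerulein mice, where 1 was higher, 3 were with only the groups compared, 5 with the lymphoid covariate and 1 to 3 with each library left out. In untreated mice 1 was higher with the lymphoid covariate, and for the difference of the responses 1 was with no filter and with that covariate, and 0 to 1 with each library left out. That covariate itself differed with age, B cell marker sums being 4.57 to 5.32 CPM in aged and 0.185 to 0.450 CPM in young caerulein libraries. The cause of these shifts was not tested.

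Values that changed sign included 0 that were called. Sox9 in young mice was -0.089 with the stricter filter, -0.014 with the lymphoid covariate, -0.24 to 0.29 with each library left out, and, in settings added after seeing the data, -0.17 by DESeq2 and -0.10 with no filter, both without young untreated mouse 2. With library totals, Ehf was at 0.56 in young and 0.28 in aged mice and at -0.041 between caerulein mice of the 2 ages, where Onecut1 was at -0.01, and Muc1 was at -0.027 between untreated mice. With the lymphoid covariate, Car2 was at 0.36 in young mice and -0.025 between caerulein mice, Pigr at 0.034 between untreated mice, and the difference of the responses of Ehf at 0.015. With each library left out in turn, young mice gave -0.44 to 0.20 for Ehf and -1.15 to 0.50 for Car2. Untreated mice gave -1.68 to 0.16 for Car2, -0.17 to 0.30 for Muc1, -0.16 to 0.41 for Epcam and -0.37 to 0.40 for Pigr. Caerulein mice gave -0.27 to 0.70 for Onecut1, -0.045 to 0.17 for Ehf and -0.013 to 0.28 for Spp1, and the difference of the responses was -0.82 to 0.14 for Onecut1, -0.54 to 0.047 for Ehf and -1.16 to 0.30 for Cftr.

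Mouse numbers recur across groups. Of all 15 pairs with the same number, 6 had deviations correlated above 0.1 (range -0.21 to 0.16), among them all 3 of the young caerulein comparison, and 4 of 11 libraries correlated best with their own number. With the mouse number as a block, 2 members were higher and 2 lower in each caerulein comparison, 1 was higher between caerulein mice and 0 in the other 2 comparisons, and the difference of the responses of Sox9 was 1.39 (adjusted p = 0.301). With the block and only the young groups in the fit, added after seeing the data, 1 member was higher and 2 lower, Spp1 having lost its call, and Ehf was at 0.040. Over all genes that fit called 3176 higher and 2414 lower, against 3364 and 2778 for the young groups without the block. The block changed no other call of a member. The difference of the responses was not refitted with only the groups compared, since it uses all 4. Leaving out an aged untreated library leaves 1, assumed to vary like the other groups. Depth limits Cftr, Car2 and, after caerulein, Onecut1, with 4 to 77 reads per library.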
